A study of Arabidopsis thaliana and Arabidopsis lyrata subsp. lyrata and Arabidopsis halleri subsp. gemmifera with 10 samples.

Results

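The genes described are 4 ATG8 genes of autophagy, APG8A (AT4G21980), ATG8B (AT4G04620), ATG8C (AT1G62040) and APG8H (AT3G15580), and ATG3 (AT5G61500). They were chosen by name with earlier results of these data known, so their counts and medians beside those of all probe sets are descriptions. Each is measured by 1 probe set of the Affymetrix ATH1 array, and they are 5 of its 22746 probe sets when controls are left out. The gene table of assembly TAIR10.1 lists both ATG8I and autophagy 8H as other names of APG8H, and holds a separate gene under the symbol ATG8H (AT3G06420), which is treated as a different gene below. RNA came from mature leaves taken before flowering of A. thaliana (the Col accession, the annual model plant on whose sequence the array was designed), of its perennial relatives A. halleri ssp. gemmifera and A. lyrata ssp. lyrata, and of hybrids of A. thaliana with each relative, called the A. lyrata hybrid and the A. halleri hybrid here. All 5 groups grew at 22 C under 16 h of light and 8 h of dark, none was treated, and each has 2 biological replicates of 1 array, 10 arrays in all. The sources used here give no plant age, cross direction or ploidy, and do not say whether leaves were pooled.

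Autophagy carries cytoplasm and organelles into the vacuole for breakdown, and in leaves it is known for recycling nutrients during starvation and senescence. ATG8 is a small ubiquitin-like protein that is attached to the lipid phosphatidylethanolamine on the growing autophagosome membrane, where it binds cargo receptors. The protease ATG4 first trims the end of most ATG8 proteins to expose a glycine, ATG7 activates that glycine, and ATG3 is the conjugating enzyme that passes ATG8 to the lipid. In A. thaliana the proteins of ATG8H and ATG8I already end in the glycine and need no trimming.

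Values are signals in arbitrary units after every array was rescaled to a mean of 500, taken without the highest and lowest 2% of values. Differences are log2 differences from limma, computed on log2(signal + 9.24) and fitted over 16679 probe sets, with adjusted p called below 0.05; all 5 genes were among the probe sets fitted. The number of arrays limits the precision, and signals of different probe sets are not compared as levels. As deposited, the trimmed means ran from 24.3 to 136 on 5 arrays (both A. lyrata arrays, both arrays of its hybrid and A. thaliana replicate 2) and were 500 on the other 5. The 18 spike-in control probe sets (bioB, bioC, bioD and cre) then exceeded their A. thaliana level 3.64-fold for A. lyrata and 2.49-fold for A. halleri, and for their hybrids 1.79-fold and 1.2-fold. Differences are thus set against the mean signal of each array, and the value on the spike-in scale is given where it turned a call named below. On that scale the median of all probe sets against A. thaliana moved from 0.31 to -1.56 for A. lyrata. For A. halleri it moved from 0.32 to -1.01. Less RNA and weaker pairing of a relative's RNA with the array's probes cannot be told apart on the spike-in scale. The leaf label was checked on 3 mesophyll genes: RCA, the Rubisco activase, ranged from 26882 to 73049 over the arrays, and PRK and SBPASE, both of the Calvin cycle, from 6505 to 35488 and from 7460 to 34705. The guard cell gene FMA ranged from 131 to 470 and the vascular gene SWEET11 from 842 to 11873, and none of the listed flower, root and seed markers had a named probe set. In whole leaves, fewer cells of a type and less RNA per cell cannot be told apart.

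**Figure D1:**
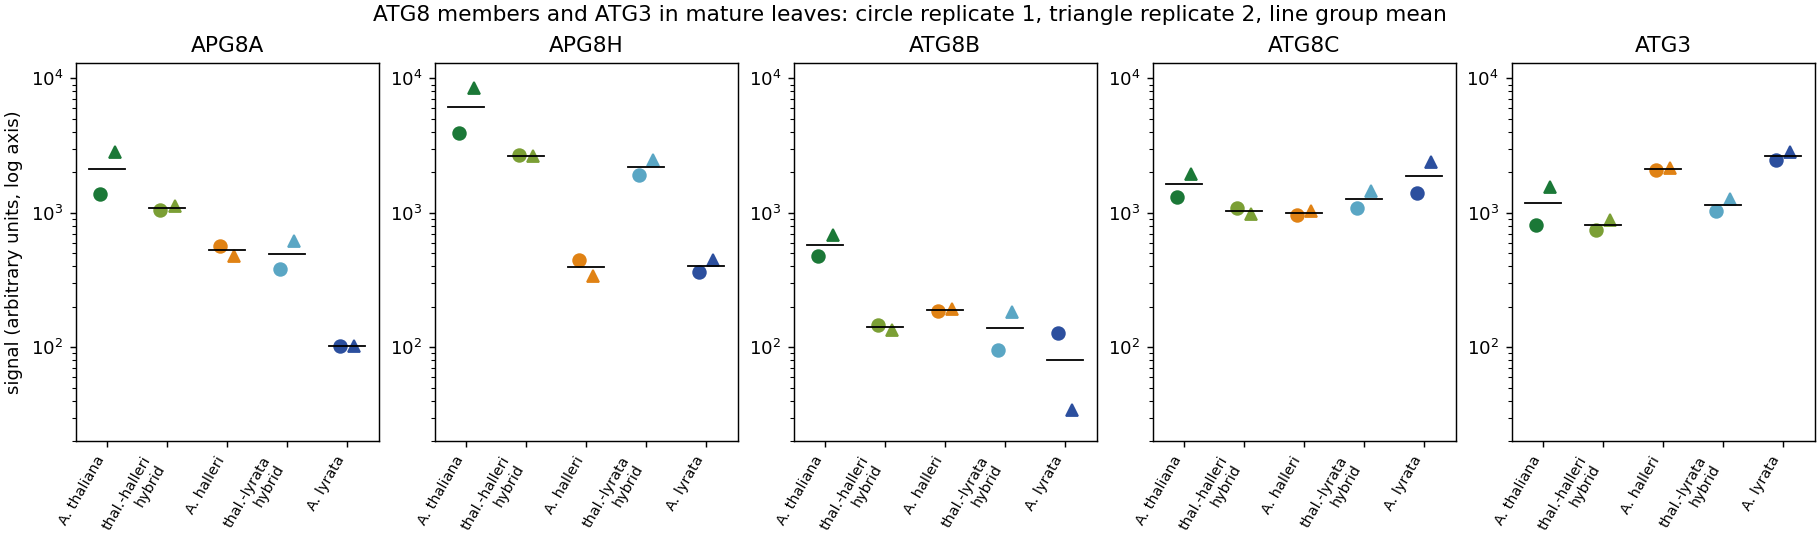
Signal (arbitrary units, log axis) of APG8A, APG8H, ATG8B, ATG8C and ATG3 on each of the 10 arrays, by group; circles are replicate 1, triangles replicate 2 and lines group means. APG8A runs from 2853 on an A. thaliana array to 103 in A. lyrata, whereas ATG3 on this scale is highest in A. lyrata, at 2453 and 2853.

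APG8A, an ATG8 whose product needs trimming by ATG4, gave its strongest signal in A. thaliana and its weakest in A. lyrata. The A. thaliana arrays were at 1383 and 2853 and the A. halleri hybrid at 1049 and 1129. The A. halleri arrays were at 571 and 478, the A. lyrata hybrid at 382 and 612, and A. lyrata at 103 on each array, just under the signal of 104 that served as the filter on weak probe sets. By group mean the order was A. thaliana, the A. halleri hybrid, A. halleri, the A. lyrata hybrid and A. lyrata, and of neighbours in it the arrays overlapped only between A. halleri and the A. lyrata hybrid.

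APG8H was strongest in A. thaliana and weakest in both relatives, with the hybrids between them. The A. thaliana arrays read 3902 and 8447, the A. halleri hybrid 2676 and 2647 and the A. lyrata hybrid 1923 and 2457. In A. lyrata the signals were 365 and 442, and in A. halleri 445 and 341. All 4 hybrid arrays lay below both A. thaliana arrays and above all 4 arrays of the relatives, and the relatives overlapped each other.

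ATG8B, another ATG8 that needs trimming, gave its strongest signal in A. thaliana, and 1 array of A. lyrata and 1 of its hybrid were below the filter signal of 104. It stood at 476 and 685 in A. thaliana, 186 and 192 in A. halleri, 148 and 135 in the A. halleri hybrid, 94.8 and 182 in the A. lyrata hybrid and 127 and 34.2 in A. lyrata. Both A. thaliana arrays exceeded the other 8. Of the lower groups, the A. lyrata hybrid overlapped A. lyrata and the A. halleri hybrid.

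ATG8C, also an ATG8 that needs trimming, had neighbouring groups that overlapped throughout. Its arrays were at 1409 and 2376 in A. lyrata, 1313 and 1959 in A. thaliana, 1083 and 1463 in the A. lyrata hybrid, 1088 and 984 in the A. halleri hybrid and 959 and 1028 in A. halleri. In this order of means the arrays of each group overlapped those of the next.

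ATG3, the conjugating enzyme, was brightest in the relatives on this scale. It was at 2453 and 2853 in A. lyrata and at 2089 and 2164 in A. halleri, and these 4 arrays lay above the other 6. A. thaliana followed with 812 and 1546, the A. lyrata hybrid with 1029 and 1273 and the A. halleri hybrid with 740 and 883. Among these last 3 groups the A. thaliana arrays overlapped both hybrids, and the hybrids did not overlap each other.

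Against A. thaliana, 3 of the 4 ATG8 genes were lower in A. lyrata leaves, and ATG3 was higher, though not on the spike-in scale, where its sign turned. Of the 5 genes 1 was called higher and 3 lower, where 43% of all probe sets were called, 25.8% higher and 17.2% lower, and the median of the 5 was -2.91 against 0.31 for all. No detection flags were used, so where A. lyrata arrays lay under the filter signal its value stands in as their limit and the fold is written as a bound. Such a bound, here and below, allows for the weak signal only and not for the spread between arrays. APG8A, under it on both A. lyrata arrays, was at least 17.6-fold lower (2118 ± 1039 against 103 ± 0.0686, SD, n = 2 each), with a fitted log2 difference of -4.16 ± 0.38 (SE, adjusted p = 8.82e-05). APG8H fell by 3.81 on the log2 scale, which is 14-fold (adjusted p = 0.000108), and ATG8B, under the limit on 1 of the 2 arrays, was at least 4.66-fold lower (fitted value -2.91 ± 0.54, adjusted p = 0.00286). Without 1 of the A. lyrata arrays ATG8B ranged from -3.74 to -2.09. Over the fits without 1 of the 10 arrays APG8A ranged from -4.68 to -3.64. For these 3 genes the call held under all 19 alternatives run. Both A. lyrata arrays lay below both A. thaliana arrays for these 3, as for 27.4% of all probe sets, and above them for ATG3, as for 42.2%. ATG8C did not pass (0.19 ± 0.33, adjusted p = 0.659, 95% interval -0.54 to 0.92), and spike-in scaling gave a call of lower (-1.66, adjusted p = 0.00263). ATG3 was 2.35-fold higher (1179 ± 519 against 2653 ± 283, adjusted p = 0.0128), and was at -0.62 on the spike-in scale (adjusted p = 0.181). The ATG3 difference was 0.77 without A. thaliana replicate 1, and it was no longer called without A. lyrata replicate 2 (1.12, adjusted p = 0.0693). The array's probes follow A. thaliana sequence, so a lower transcript level and weaker pairing of a relative's transcript with the probes cannot be told apart. The same limit applies to A. halleri and to both hybrids below.

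In A. halleri leaves APG8A, APG8H and ATG8B were also lower than in the same A. thaliana arrays, and ATG3 was higher except on the spike-in scale. There 1 of 5 was higher and 3 lower, beside 39.7% of all probe sets called, 23.5% higher and 16.2% lower, with a median of -1.55 against 0.32. APG8H was 14.4-fold lower (-3.85 ± 0.36, adjusted p = 0.000115) and APG8A 3.75-fold lower (-1.91 ± 0.38, adjusted p = 0.00427), and both calls held under all 19 alternatives. The arrays lay apart for all 5 genes, 4 with A. halleri below, as for 27.1% of all probe sets, and ATG3 with A. halleri above, as for 43%. ATG8B was 2.93-fold lower (adjusted p = 0.0462) and ATG3 1.89-fold higher (0.92 ± 0.32, adjusted p = 0.0450), with ATG3 at -0.39 on the spike-in scale (adjusted p = 0.431). These 2 calls were near the threshold, and both were lost with no filter (adjusted p = 0.0655 and 0.0510) and with no variance trend (0.0505 and 0.0725). When arrays were left out in turn, ATG8B was called in 2 of 10 fits (without either A. lyrata array) and ATG3 in 1 (without A. thaliana replicate 2, 1.38), and without A. thaliana replicate 1 ATG3 was at 0.46. With the class of deposited scale as a block, which sets A. halleri against A. thaliana replicate 1 alone, ATG8B was not called (-1.29, adjusted p = 0.151). ATG8C was at -0.69 ± 0.33 (adjusted p = 0.117), its arrays not overlapping those of A. thaliana, and spike-in scaling made it a call (-1.99, adjusted p = 0.00138).

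Between the relatives APG8A was the gene called. It was at least 4.69-fold higher in A. halleri than in A. lyrata (525 ± 65.7 against 103 ± 0.0686, adjusted p = 0.00461), and this was the single call of 5, beside 15.5% of probe sets called, 8.11% higher and 7.36% lower, with a median of -0.04 over the 5 and -0.03 over all. It held under all 19 alternatives. APG8H differed by -0.04 ± 0.36 (adjusted p = 0.949), with a 95% interval from -0.85 to 0.76, and its sign turned on the spike-in scale (0.49) and with the class of deposited scale as a block (1.07). Both A. lyrata arrays were deposited on the lower scale and both A. halleri arrays at 500. Between the relatives this block thus rests on the 2 A. thaliana arrays alone, and species and deposited scale cannot be told apart. ATG8B (1.36 ± 0.54, adjusted p = 0.123), ATG8C (-0.88 ± 0.33, adjusted p = 0.1003) and ATG3 (-0.31 ± 0.32, adjusted p = 0.545, or 0.23 on the spike-in scale) did not pass. ATG8C was called without A. thaliana replicate 1 (adjusted p = 0.0481) or replicate 2 (adjusted p = 0.0485), and ATG8B without A. lyrata replicate 1 (2.19, adjusted p = 0.0314).

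**Figure D2:**
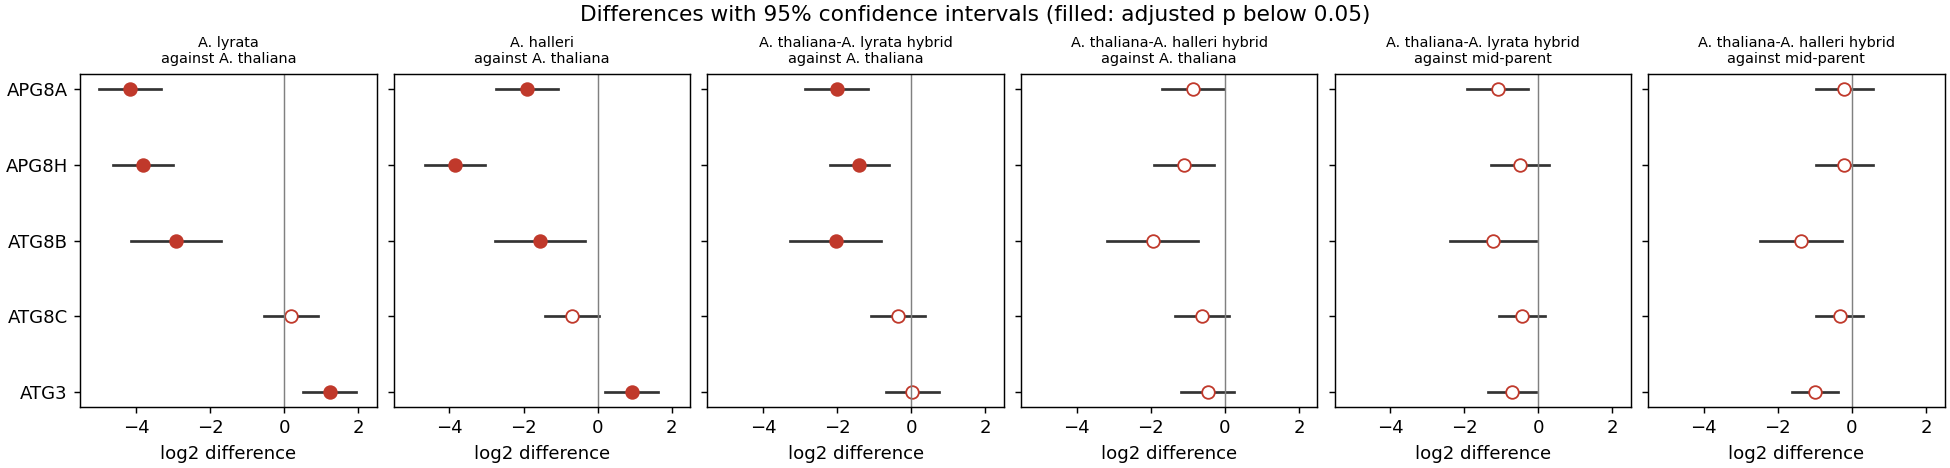
Log2 differences of the 5 genes with 95% confidence intervals in 6 of the 10 comparisons; filled points were called at adjusted p below 0.05. APG8A, APG8H and ATG8B lie left of 0 in both species against A. thaliana, ATG3 lies right of 0 there on the trimmed-mean scale, and no point is filled against mid-parent.

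**Figure D3:**
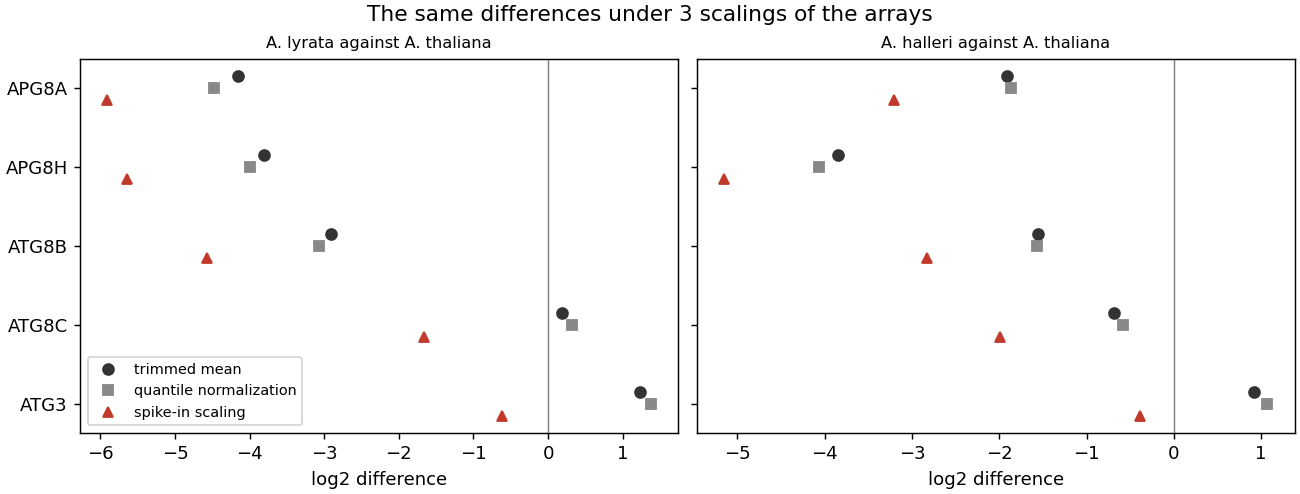
Log2 differences of the 5 genes from A. thaliana in A. lyrata and A. halleri with arrays scaled by the trimmed mean, by quantile normalization and by the spike-in controls. The spike-in scale moves every point to the left and takes ATG3 from 1.23 to -0.62 in A. lyrata and from 0.92 to -0.39 in A. halleri.

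In the A. lyrata hybrid, APG8A, APG8H and ATG8B were below A. thaliana, and APG8A and APG8H were above A. lyrata. Against A. thaliana 0 of 5 genes were higher and 3 lower, beside 11.5% of probe sets called, 6.6% higher and 4.94% lower, and the median was -1.40 against 0.10 for all. APG8A was 4.05-fold lower (497 ± 162, adjusted p = 0.0115), ATG8B 4.11-fold lower (138 ± 61.5, adjusted p = 0.0403) and APG8H 2.63-fold lower (2190 ± 378, adjusted p = 0.0361). For ATG8B 1 of the 2 hybrid arrays lay under the filter signal, so its fold rests on a weak signal and is not a bound. Leaving out hybrid replicate 1 ended all 3 calls (APG8A -1.68, adjusted p = 0.111), and the count was 1 without hybrid replicate 2, without A. thaliana replicate 2 (APG8H -0.84), or without any of the 4 arrays of A. halleri and its hybrid. The APG8H call was also lost with quantile normalization (adjusted p = 0.0562) and no variance trend (0.0612), and that of ATG8B with an offset of 1 (0.0528), no filter (0.0592) and a replicate block (0.0551). ATG3 was at 1151 ± 173, a difference of 0.03 from A. thaliana (95% interval -0.69 to 0.75), and ATG8C at -0.35 (adjusted p = 0.525). The ATG3 sign turned on the spike-in scale (-0.81, adjusted p = 0.137) and ATG8C was called lower there (-1.18, adjusted p = 0.0382).

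Against A. lyrata, 2 of 5 genes were higher in its hybrid and 1 lower, beside 20.5% of probe sets called, 10.3% higher and 10.2% lower, with a median of 0.87 against -0.24 for all. APG8H was 5.31-fold higher (adjusted p = 0.00263) and APG8A at least 4.35-fold higher (adjusted p = 0.00548), each called under all 19 alternatives. ATG3 was 2.3-fold lower (-1.20 ± 0.32, adjusted p = 0.0285), and on the spike-in scale the difference was -0.18 and not called (adjusted p = 0.755). Leaving out either A. lyrata array or either hybrid array also ended the ATG3 call, with adjusted p from 0.0716 to 0.152. ATG8B (0.87, adjusted p = 0.273) and ATG8C (-0.54, adjusted p = 0.260) did not pass, but ATG8B was called on the spike-in scale (1.70, adjusted p = 0.0396), where ATG8C was at 0.48.

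In the A. halleri hybrid, limma called none of the 5 genes against A. thaliana, beside 5.99% of probe sets called, 3.99% higher and 2% lower, with a median of -0.86 against 0.13 for all. All 5 differences were negative: -1.95 ± 0.54 for ATG8B (adjusted p = 0.0658), -1.11 ± 0.36 for APG8H (adjusted p = 0.0997), -0.86 ± 0.38 for APG8A (adjusted p = 0.198), -0.63 for ATG8C and -0.47 for ATG3. At an unadjusted p below 0.05 there were 3 of these, ATG8B, APG8H and APG8A, beside 24.1% of all probe sets, with 8.72% of all lower. The A. thaliana arrays weighed on this count: without replicate 1 APG8A, APG8H and ATG3 were called lower (-1.38, -1.66 and -0.93). Spike-in scaling made ATG8B a call (-2.23, adjusted p = 0.0443), as did leaving out either A. lyrata array.

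Against A. halleri, its hybrid had 1 gene of 5 higher and 1 lower, beside 15% of probe sets called, 8.75% higher and 6.3% lower, with a median of 0.06 against -0.19 for all. APG8H was 6.69-fold higher (2662 ± 20.9 against 393 ± 73.3, adjusted p = 0.00166), under all 19 alternatives. ATG3 was 2.61-fold lower (812 ± 101 against 2127 ± 53, adjusted p = 0.02004), and all hybrid arrays lay below all A. halleri arrays. On the spike-in scale ATG3 was at -0.34 and not called (adjusted p = 0.535), and the call was also lost without any 1 of the A. halleri or hybrid arrays (adjusted p from 0.0826 to 0.135). APG8A was at 1.04 ± 0.38 (adjusted p = 0.0918) and was called on the spike-in scale (2.09), with the class of deposited scale as a block (adjusted p = 0.0248) and without A. thaliana replicate 1 or 2. ATG8B (-0.40, or 0.60 on the spike-in scale) and ATG8C (0.06) did not pass, though ATG8C was called higher on the spike-in scale (1.11, adjusted p = 0.0400).

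Set against the mean of its parents on the linear scale, neither hybrid had a called gene among the 5, but every hybrid array was below that mean for each of them. In the A. lyrata hybrid the signals were 44.8% of mid-parent for APG8A, 66.6% for APG8H, 41.9% for ATG8B, 72.2% for ATG8C and 60.1% for ATG3. In the A. halleri hybrid they were 82.4%, 81.1%, 36.7%, 78.8% and 49.1% in the same order. Across all probe sets, both arrays were below mid-parent for 50.5% in the first hybrid and 49% in the second, and above it for 26.3% and 27.8%. Against mid-parent 5.38% of probe sets were called in the first hybrid, 1.67% higher and 3.71% lower, and 1.09% in the second, 0.396% higher and 0.689% lower. The medians of the 5 were -0.71 and -0.33, against -0.18 and -0.12 for all. The lowest adjusted p was 0.114 (APG8A, -1.10 ± 0.37) in the first hybrid and 0.123 (ATG3, -0.997 ± 0.28) in the second, and 3 and 2 of the 5 had an unadjusted p below 0.05, as did 23.1% and 16.3% of all probe sets. Spike-in scaling made APG8A a call in the first hybrid (-1.88, adjusted p = 0.0381), where it called 5.22% of all. With A. thaliana replicate 2 as the only A. thaliana array, APG8A (-1.59), APG8H (-1.02) and ATG3 (-0.87) were called lower in the A. lyrata hybrid and ATG3 (-1.17) in the A. halleri hybrid. Without replicate 2 ATG3 was called in the A. halleri hybrid as well (-0.85, adjusted p = 0.0490). With the mid-parent taken on the log2 scale the signs of APG8A and APG8H turned in both hybrids (0.06 and 0.51, 0.09 and 0.82), none of them called.

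The hybrids did not differ from each other in a called gene, beside 2.66% of probe sets, of which 1.93% were higher and 0.725% lower in the A. halleri cross. APG8A was at 1.15 ± 0.38 (adjusted p = 0.168, unadjusted p = 0.0124), the remaining 4 had unadjusted p of 0.153 or more, and their 95% intervals held 0. An unadjusted p below 0.05 was found for 14.9% of all probe sets. On the spike-in scale ATG8C (0.30) and ATG3 (0.080) changed sign. Both A. lyrata hybrid arrays were deposited on the lower scale and both A. halleri hybrid arrays at 500. A block for this class thus rests on the 2 A. thaliana arrays alone, and cross and deposited scale cannot be told apart. APG8A was called on the spike-in scale (1.73, adjusted p = 0.0455), with the class of deposited scale as a block (2.19, adjusted p = 0.0253) and without A. thaliana replicate 1 or 2 (adjusted p of 0.0461 and 0.0481). The test of whether the hybrids deviated differently from their mid-parents called 1.04% of probe sets and none of the 5 genes, with APG8A at 0.89 ± 0.38 (adjusted p = 0.436).

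The other 5 ATG8 genes had named probe sets. None of ATG8D, ATG8E, ATG8F, ATG8G and ATG8H was called in A. halleri against A. thaliana, where they ranged from -0.69 to 0.47. In A. lyrata they ranged from -0.35 to 0.70, and ATG8F was called higher (7581 ± 368 against 4704 ± 990, adjusted p = 0.0485). That ATG8F call reversed on the spike-in scale (-1.16, adjusted p = 0.00827) and was not made with quantile normalization (0.48, adjusted p = 0.220) or when any 1 array but A. thaliana replicate 2 was left out (adjusted p from 0.0595 to 0.163). It was also lost with no filter (adjusted p = 0.0631), the class of deposited scale as a block (0.49, adjusted p = 0.143), a replicate block (0.0550) and no variance trend (0.0893). Over all 9 ATG8 genes 1 was called higher and 3 lower in A. lyrata, beside 25.8% and 17.2% of all probe sets. The median was -0.19, against 0.31 for all. In A. halleri 0 were called higher and 3 lower, beside 23.5% and 16.2%, with a median of -0.69 against 0.32. In both directions together, 43% and 39.7% of all probe sets were called in A. lyrata and A. halleri. On the spike-in scale 9 of 9 were called lower in A. lyrata and 8 of 9 in A. halleri, where that scale called 60.8% and 44.3% of all probe sets lower. Between the relatives, ATG8F was 1.16 lower on the log2 scale in A. halleri (-1.16 ± 0.25, adjusted p = 0.0150), which was not called on the spike-in scale (-0.61, adjusted p = 0.202), with the class of deposited scale as a block (-0.73, adjusted p = 0.218) or without any 1 of the 4 arrays of these species (adjusted p from 0.0510 to 0.105).

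**Figure D4:**
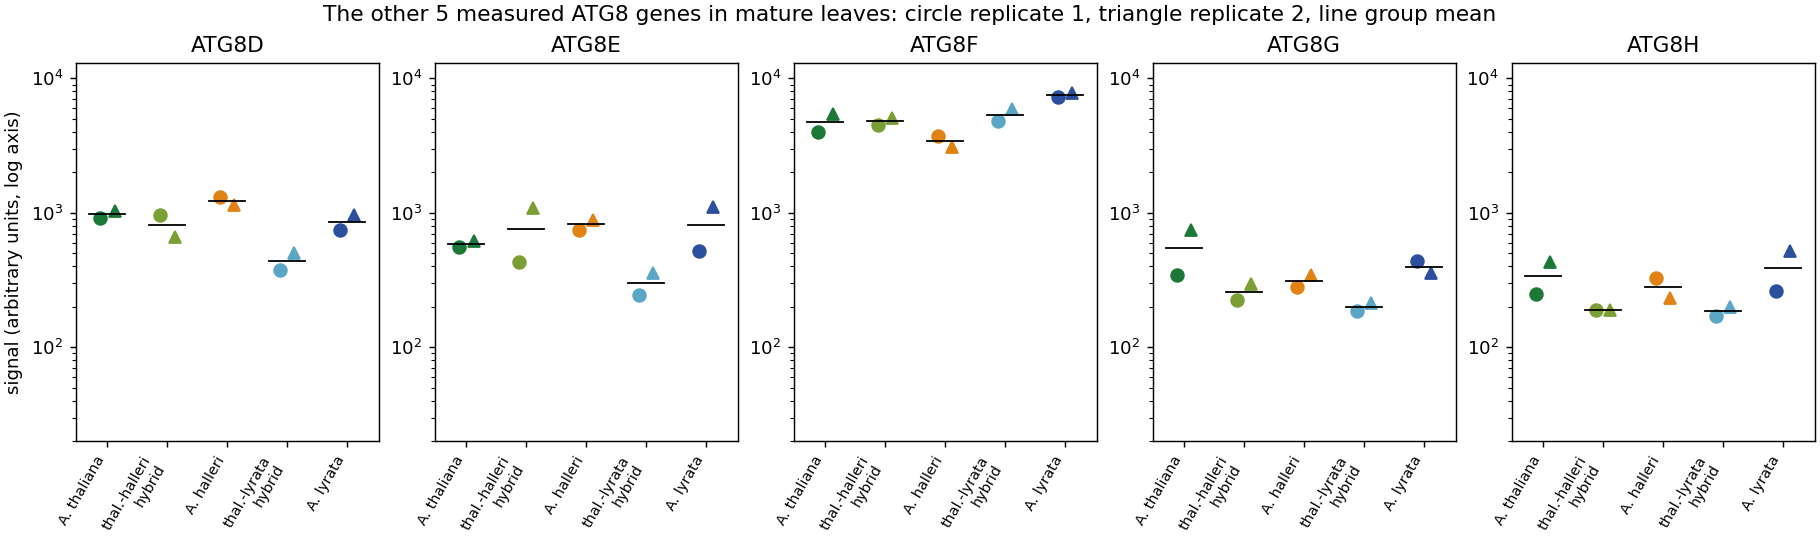
Signal (arbitrary units, log axis) of ATG8D, ATG8E, ATG8F, ATG8G and ATG8H on each array, drawn as for the genes above. In the A. lyrata hybrid ATG8D (374 and 498), ATG8E (244 and 355), ATG8G (185 and 214) and ATG8H (171 and 200) lie below all 4 parental arrays.

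Including these genes, 9 of 9 ATG8 genes had both A. lyrata hybrid arrays below mid-parent, beside 50.5% of all probe sets, with a median difference of -1.06 against -0.18 for all. ATG8D was the one called (436 ± 87.7 against a mid-parent of 917, -1.06 ± 0.26, adjusted p = 0.0452). ATG8D was also called lower in this hybrid than in A. thaliana (-1.16, adjusted p = 0.0361) and than in A. lyrata (-0.96, adjusted p = 0.0468), though on the spike-in scale it was at 0.05 against A. lyrata. Leaving out 1 array ended these calls in 7 and 8 of 10 fits (adjusted p up to 0.224 and 0.234). The first was also lost with quantile normalization (adjusted p = 0.0750) and no variance trend (0.0582), the second with no filter (0.0539), a replicate block (0.0623) and no variance trend (0.0708). The mid-parent call of ATG8D was lost with quantile normalization (adjusted p = 0.0630), a replicate block (0.0612), no variance trend (0.0792) and without either A. lyrata array (adjusted p = 0.0703 and 0.110), either hybrid array (0.342 and 0.0950) or any of the 4 arrays of A. halleri and its hybrid. Both hybrid arrays were below all 4 parental arrays for ATG8D, ATG8E, ATG8G and ATG8H, 4 of 9, beside 7.88% of all probe sets. The differences of all 9 were below 0 on the spike-in scale and with quantile normalization too, 8 were without A. thaliana replicate 2, and 7 with the mid-parent on the log2 scale. In the A. halleri hybrid 7 of 9 had both arrays below mid-parent, beside 49% of all, and ATG8F had both above. There 2 of 9, ATG8B and ATG8H, had both arrays below all 4 parental arrays, beside 6.74%, and no ATG8 gene was called.

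**Figure D5:**
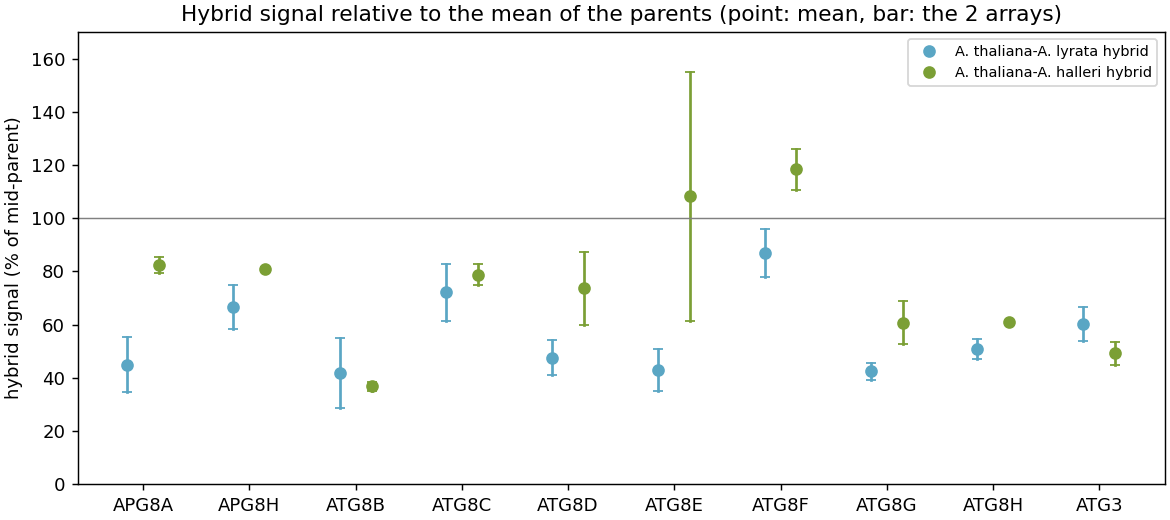
Hybrid signal as a percentage of the mean of its parents for the 9 ATG8 genes and ATG3; points are the mean of the 2 hybrid arrays and bars run from the lower to the higher array. All 10 genes lie below 100% in the A. lyrata hybrid, and the means of ATG8E and ATG8F lie above it in the A. halleri hybrid, at 108% and 118%. The ATG8E arrays of that hybrid lie on both sides of mid-parent (430 and 1090 against 703).

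Further autophagy genes were listed by locus, except ATG8H, which was added because its probe set bears that symbol. Of these 30 genes, 12 had a named probe set, the 5 ATG8 genes above and 7 others measured by 8 probe sets. The gene table names 1 of those 7, AT5G66930, as ATG101, a subunit of the kinase complex that starts autophagosome formation, and gives the other 6 no symbol. None of the 8 probe sets was called in either relative against A. thaliana, where 43% (A. lyrata) and 39.7% (A. halleri) of all probe sets were called. Their differences ranged from -0.92 to 1.26 in A. lyrata and from -0.76 to 1.55 in A. halleri. Between the relatives AT5G50230 was lower in A. halleri (825 ± 51.1 in A. lyrata, 409 ± 92.1 in A. halleri, -1.01 ± 0.28, adjusted p = 0.0396), a call that was lost on the spike-in scale (-0.47, adjusted p = 0.402), with the class of deposited scale (-0.54, adjusted p = 0.441) or the replicate number (0.0547) as a block, with no variance trend (0.0609) and in every fit without 1 array other than those without an A. thaliana array (adjusted p from 0.0633 to 0.217). No hybrid comparison called any of the 8, where from 1.09% (A. halleri hybrid against mid-parent) to 20.5% (A. lyrata hybrid against A. lyrata) of all probe sets were called.

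The A. thaliana replicates differed in these genes. Replicate 2 was above replicate 1 for all 9 ATG8 genes and ATG3 and for the 8 other autophagy probe sets, 18 of 18, where 53.3% of all probe sets were above. The ratio was 2.16 for APG8H, 2.06 for APG8A, 1.9 for ATG3, 1.49 for ATG8C and 1.44 for ATG8B, against a median of 1.05 over all probe sets. Corresponding counts of 18 were 8 and 6 in A. lyrata and A. halleri, and 15 and 10 in their hybrids, where 50.4%, 51%, 57.2% and 54.5% of all probe sets were above. A. thaliana replicate 2 is also the array of this group deposited on the lower scale, and the part of scale in the difference was not tested. Among the 5 groups, the A. thaliana replicates lay furthest apart for APG8A, APG8H and ATG3. Errors and p-values use a spread pooled over all groups, so for these genes they may overstate the precision of differences from A. thaliana. For ATG8B and ATG8C the A. lyrata replicates lay further apart, at ratios of 0.268 and 1.69.

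Of 8 listed senescence and starvation genes, SAG101 and WRKY53 had a probe set. SAG101, which acts in leaf senescence and defence, was at 374 and 561 in A. thaliana. Its arrays read 90.7 and 53.6 for A. lyrata, 29 and 87.1 for A. halleri, 71.4 and 129 for the A. lyrata hybrid and 177 and 247 for the A. halleri hybrid. WRKY53, a transcription factor of leaf senescence, was at 955 and 1623 in A. thaliana. The A. lyrata arrays had 79.7 and 137, those of A. halleri 129 and 136, and the hybrids 95 and 123 (A. lyrata) and 713 and 272 (A. halleri). Both were lower in A. lyrata (-2.56 and -3.46), in A. halleri (-2.95 and -3.14) and in the A. lyrata hybrid (-2.15 and -3.42) than in A. thaliana, so these markers moved with APG8A, APG8H and ATG8B in those 3 groups, and their part in the ATG8 differences was not tested.

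Cell type markers also moved with the groups. SWEET11, a sucrose transporter of the phloem, read 11873 and 6361 in A. thaliana but 1291 and 842 in A. halleri, where it was 8.27-fold lower (-3.05, adjusted p = 0.000399). It was lower there than in A. lyrata too (-3.34, adjusted p = 0.000672), higher in the A. halleri hybrid than in A. halleri (2.13, adjusted p = 0.00608), and these 3 differences kept their sign and call on the spike-in scale. FMA, a guard cell transcription factor, was called higher than in A. thaliana in A. lyrata (1.27), A. halleri (1.42) and their hybrids (1.66 and 1.20), but in none of them on the spike-in scale, where it was at -0.51 in A. lyrata. Quantile normalization kept these calls except that in the A. halleri hybrid (0.97, adjusted p = 0.0820). Of the 3 mesophyll genes, RCA was higher in A. lyrata (1.27) and in its hybrid (1.16) than in A. thaliana. On the spike-in scale these values were -0.59, a call of lower (adjusted p = 0.0414), and 0.32. With quantile normalization they were -0.28 and 0.09, neither called (adjusted p = 0.383 and 0.854). RCA was lower in A. halleri than in A. lyrata (-1.17, adjusted p = 0.0116), but not called on the spike-in scale (-0.62, adjusted p = 0.0811) or with quantile normalization (-0.71, adjusted p = 0.0685). PRK was lower in A. halleri (-1.04, adjusted p = 0.0146) and higher in the A. lyrata hybrid (1.25, adjusted p = 0.0199) than in A. thaliana. The call in the A. lyrata hybrid was lost on the spike-in scale (0.41, adjusted p = 0.241) and with quantile normalization (0.47, adjusted p = 0.313). PRK was above mid-parent in both hybrids (1.55 and 1.39, adjusted p = 0.0105 and 0.0361), while SBPASE was higher in A. halleri than in A. thaliana (1.45, or 0.14 on the spike-in scale). With quantile normalization neither PRK against mid-parent in the A. halleri hybrid (1.09, adjusted p = 0.0656) nor this SBPASE difference (0.91, adjusted p = 0.112) was called. The part of these cell types in the ATG8 and ATG3 differences was not tested.

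Across the 10 arrays, APG8A followed APG8H (r = 0.821) and ATG8B (r = 0.805), and ATG3 ran against APG8H (r = -0.757) and APG8A (r = -0.663); the arrays share groups, so these values are descriptions. Among 1265 named probe sets per gene, the 3 most like APG8H were those of PIA1 (r = 0.985), DER2.1 (0.980) and nad1 (0.961). PIA1 averaged 3515 in A. thaliana, 377 and 311 in the relatives A. lyrata and A. halleri, and 1955 and 2207 in their hybrids. For APG8A they were TIL (0.956), OBE1 (0.955) and TIC (0.947), and TIL averaged 6676, 550, 2569, 3430 and 3343 in the same order. ATG8B was most like ALDH6B2 (0.905), BZIP60 (0.899) and RR16 (0.880), ATG8C like Y14 (0.908), LSM3A (0.878) and XERICO (0.874), and ATG3 like UGT85A5 (0.935), SEC22 (0.920) and FYD (0.909).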

How the data were processed

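The values are ATH1 microarray signals of 10 arrays, in 5 groups of 2 biological replicates assigned by the sample titles. Standard errors and p-values rest on a single spread per probe set, pooled over the replicate pairs of all 5 groups and moderated by limma. They do not use the spread of the compared groups alone. Per the submitters' processing notes, GCOS and MAS5 gave the intensity the authors deposited for each probe set; the sources used here state no settings, genome build or detection flags. All arrays were brought to a mean of 500, trimmed by 2% at each end, 64 control probe sets were left out, and log2(signal + 9.24), with the 10th percentile of all signals as offset, was fitted with limma 3.58.1 in R 4.3.3 (lmFit, eBayes with a variance trend, 5 residual and 4.73 prior degrees of freedom). Probe sets with at least 1 group mean of 104 (the 40th percentile) were fitted, 16679 of 22746 (73.3%). P-values were adjusted by Benjamini-Hochberg within each of 10 comparisons, and a mid-parent is the linear mean of both parents, with its error by the delta method. The fit was also run on simulated data with normal noise and no scale or replicate structure, so that run does not cover those features of the arrays. Platform annotation gave 13513 probe sets 1 gene, 503 several and 8730 none, and 13436 matched the TAIR10.1 gene table, used for names only.

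Named are the 5 genes, every measured gene of the autophagy and senescence lists, the 3 named probe sets most like each gene by Pearson's r, and cell type markers. These genes and lists were chosen with earlier results of these data known. Alternatives were spike-in scaling, quantile normalization, offsets of 1 and 32, no filter, a filter at the 60th percentile, blocks for the class of deposited scale and for replicate number, no variance trend, a log2 mid-parent, and leaving out each array.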

Additional observations from a re-analysis of the deposited data

Results flagged for a closer look

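For 3 genes the difference from A. thaliana was not the same in the relatives, by the direct test of A. halleri against A. lyrata with limma. APG8A stood 2.25 higher on the log2 scale in A. halleri than in A. lyrata (adjusted p = 0.00461), and since both A. lyrata arrays lay under the filter signal this is a difference from a weak signal. With the filter signal as the limit for A. lyrata it was at least 4.69-fold, a bound that does not cover the spread between arrays. ATG8F differed by -1.16 (adjusted p = 0.0150) and AT5G50230 by -1.01 (adjusted p = 0.0396), and neither was called on the spike-in scale.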

How the results depend on the processing

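Of 17 called results for the 5 genes, 9 were called under every alternative and 8 lost the call under at least 1. Among 960 values under alternatives, 33 had the opposite sign, 57 lost a call and 32 gained one, and the cause was not tested. On the spike-in scale the sign turned for ATG8C (-1.66) and ATG3 (-0.62) in A. lyrata and ATG3 in A. halleri (-0.39) against A. thaliana, for APG8H (0.49) and ATG3 (0.23) between the relatives, for ATG3 (-0.81) and ATG8C (0.48) in the A. lyrata hybrid against A. thaliana and A. lyrata, for ATG8B in the A. halleri hybrid against A. halleri (0.60), and for ATG8C (0.30) and ATG3 (0.080) between the hybrids. With the class of deposited scale as a block it turned for ATG8C in A. lyrata (-0.10), APG8H (1.07) and ATG3 (0.61) between the relatives, ATG3 in the A. lyrata hybrid against A. thaliana (-0.43), APG8A (0.19) and APG8H (0.31) in the A. halleri hybrid against mid-parent, and ATG8C (0.29) and ATG3 (0.42) between the hybrids. Only A. thaliana has arrays of both classes, so this block is estimated from its 2 arrays alone. A log2 mid-parent turned APG8A (0.062 and 0.091) and APG8H (0.51 and 0.82) in the A. lyrata and A. halleri hybrids.

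When arrays were left out in turn, values that changed sign lay within these ranges: ATG8C in A. lyrata -0.19 to 0.56 and ATG3 in the A. lyrata hybrid -0.43 to 0.49, against A. thaliana; APG8H between the relatives -0.23 to 0.15; ATG8C in the A. halleri hybrid against A. halleri -0.014 to 0.13; APG8H in the A. lyrata hybrid (-1.02 to 0.015) and APG8A (-0.63 to 0.19) and APG8H (-0.73 to 0.31) in the A. halleri hybrid against mid-parent; and ATG8B between the hybrids (-0.35 to 0.53). The number of the 5 genes called then ranged from 3 to 4 for A. lyrata and from 2 to 3 for A. halleri against A. thaliana, from 1 to 2 between them, from 0 to 3 and from 2 to 3 for the A. lyrata hybrid against A. thaliana and A. lyrata, from 0 to 3 and from 1 to 3 for the A. halleri hybrid against A. thaliana and A. halleri, from 0 to 3 and from 0 to 1 for the hybrids against mid-parent, and from 0 to 1 between the hybrids.

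For A. halleri against A. thaliana the count of 4 became 2 with no filter and 2 with no variance trend. For the A. halleri hybrid against A. thaliana the count of 0 became 1 on the spike-in scale and 1 with an offset of 32. For the A. lyrata hybrid against mid-parent it went from 0 to 1 on the spike-in scale and to 3 with the class of deposited scale as a block, and between the hybrids from 0 to 1 with either. All probe sets called went from 5.38% to 5.22% and 16.3% in the first of these comparisons and from 2.66% to 7.13% and 8.9% in the second.

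Deviations of replicates with the same number had correlations from -0.13 to 0.26 over 10 pairs of groups. The highest was between A. thaliana and the A. lyrata hybrid. In both of these groups replicate 2 was above replicate 1 for 9 of 9 ATG8 genes. Whether replicates with the same number share more than the number was not tested. With the replicate number as a block the count was 4 for A. lyrata and 3 for A. halleri against A. thaliana, and 2 for the A. lyrata hybrid against A. thaliana; ATG8B lost its call in the last 2 (adjusted p = 0.0602 and 0.0551). The remaining counts were as without the block. Of the listed genes, ATG8F in A. lyrata against A. thaliana, AT5G50230 between the relatives, and ATG8D in the A. lyrata hybrid against A. lyrata and mid-parent lost their calls with it (adjusted p = 0.0550, 0.0547, 0.0623 and 0.0612). Leaving out 1 array leaves its group with a lone array, assumed to vary like the other groups.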
